A study of Mus musculus with 32 samples.

Results

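Acyl-CoA synthetases join a carboxylic acid to coenzyme A, the step that commits a fatty acid or acetate to oxidation, lipid synthesis or protein acylation. The 9 genes described here are Acsl1, Acsl3, Acsl4, Acsl5, Acsf2, Acss1, Acss2, Acsm1 and Acsm2. They were taken by symbol from a table of 32544 genes, and all 9 passed the low-count filter in every comparison. The table holds RNA-Seq counts of kidney cortex from 32 mice, 1 library per mouse. All mice carried the Col4a3 tm1Dec allele on the C57BL/6J background and were 25 weeks old. Alport mice were Col4a3-/- and lack a collagen chain of the glomerular basement membrane. Control mice were Col4a3+/-, so the controls also carry 1 copy of the allele. Each genotype and sex was given vehicle, which was a purified diet, or the same diet with nicotinamide riboside (NR), a precursor of NAD+, which makes 8 groups of 4 mice.

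The proximal tubule, which makes up most of the kidney cortex, oxidizes fatty acids for most of its energy and depends on these enzymes. Long-chain substrates are activated by the ACSL enzymes on the outer mitochondrial membrane, the endoplasmic reticulum and lipid droplets. Medium-chain substrates are activated inside mitochondria by the ACSM enzymes and ACSF2. Acetate is activated by ACSS1 in mitochondria and by ACSS2 in the cytosol and nucleus.

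Levels are given as CPM, counts divided by library totals that were scaled by the trimmed mean of M values (TMM). Total counts were 16621944 to 27778797 per library, and the 9 genes together took 0.170% to 0.608% of them. Proximal tubule content was checked with 10 markers, whose summed level was 15399 to 17882 CPM in vehicle-treated male controls. It was 5668 to 8996 CPM in vehicle-treated male Alport mice. The lowest library, replicate 3 of the NR-treated male Alport mice, was at 3679.8 CPM. Cortex was not checked against medulla. The 7 adipocyte markers summed to at most 12.0 CPM in any library. The first principal component of all genes held 46.5% of the variance. On it, replicate 1 of the NR-treated male Alport mice lay at 75.2, beyond all vehicle-treated Alport mice, while the other 3 mice of its group lay at −2.15 to 24.7. Where leaving this mouse out changed a call with NR in male Alport mice, the value without it is given. The mouse was singled out from these same data. In bulk tissue, fewer cells of a type and less RNA per cell cannot be told apart.

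Coordinates are those of GENCODE vM21 on GRCm38, which is the mm10 assembly named in the submitters' processing notes. Acsl1 is on chromosome 8 at 46471037 to 46536051, Acsl3 on chromosome 1 at 78657825 to 78707743, Acsl4 on chromosome X at 142317993 to 142390535, and Acsl5 on chromosome 19 at 55251938 to 55297720. Acsf2 is on chromosome 11 at 94557102 to 94601871. Acss1 and Acss2 are both on chromosome 2, at 150618105 to 150668500 and at 155517948 to 155585724. Acsm2 and Acsm1 are neighbors on the plus strand of chromosome 7, at 119554340 to 119600690 and at 119607026 to 119662515. How reads that fit several genes were counted is not given in the sources used here, so the values of Acsm1 and Acsm2, which belong to a family of near relatives, are uncertain to that extent. Whether counting used strand is not given either. Acss2 overlaps Ggt7, Gss and Acss2os on the other strand, Acsl5 overlaps Zdhhc6 and Acsf2 overlaps Chad, and reads of such partners cannot be told apart without strand. Acsl1 likewise overlaps Gm45244, Acss1 overlaps E130215H24Rik, and Acsm1 overlaps Gm19950 and Gm45792. On the same strand Acsl3 overlaps Utp14b, and Acss2 overlaps Gm20637 and Mipep-ps, which strand would not separate.

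Divided by the merged exon length of each gene, the level of Acsm2 ranked first among the 9 in all 8 groups. It was 712 CPM per kilobase in vehicle-treated male controls and 187 in vehicle-treated female controls. Acss1 and Acsm1 came next in those groups, at 77.3 and 82.1 CPM per kilobase in males and 142 and 112 in females. Acsf2 was the lowest of the 9 in vehicle-treated male controls, at 5.05 CPM per kilobase, and Acsl3 was the lowest in vehicle-treated female controls, at 8.39. The order depends on the length used, which merges the exons of all annotated transcripts. It was 10163 bases for Acss2, 4128 for Acss1 and 2181 for Acsm1. Before division Acss2 was at 343 CPM in vehicle-treated male controls, above Acss1 at 319 and Acsm1 at 179. In vehicle-treated female controls Acsl1, at 455 CPM, was above Acsm1, at 245.

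Promoter sequence is shown for 4 genes: Acsl1, Acsl3 and Acsf2, because they moved together with NR, and Acsm2, because its level was the highest. The sequences are those of RefSeq on GRCm38.p6 and stop before the outermost annotated start of each gene. All 9 genes matched that table, with 11 windows of 300 bases each, 250 before and 50 after a start site. Capitals mark GGGGCGGGG on either strand, the letters of a GC box, in the promoters of Acsl1, Acsl3 and Acsf2, and TATAAA in that of Acsm2.
Acsl1, chr8:46470787-46471036, plus strand: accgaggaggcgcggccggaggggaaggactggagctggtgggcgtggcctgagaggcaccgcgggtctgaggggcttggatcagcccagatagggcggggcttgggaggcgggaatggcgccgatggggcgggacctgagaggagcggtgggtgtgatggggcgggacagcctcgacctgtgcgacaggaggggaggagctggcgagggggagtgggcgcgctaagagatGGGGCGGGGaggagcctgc
Acsl3, chr1:78657575-78657824, plus strand: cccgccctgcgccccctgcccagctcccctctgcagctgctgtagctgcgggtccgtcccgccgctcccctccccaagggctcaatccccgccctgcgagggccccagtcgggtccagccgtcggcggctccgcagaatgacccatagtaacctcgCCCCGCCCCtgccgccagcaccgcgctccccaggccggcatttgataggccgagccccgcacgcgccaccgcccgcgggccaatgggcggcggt
Acsf2, chr11:94601872-94602036, minus strand: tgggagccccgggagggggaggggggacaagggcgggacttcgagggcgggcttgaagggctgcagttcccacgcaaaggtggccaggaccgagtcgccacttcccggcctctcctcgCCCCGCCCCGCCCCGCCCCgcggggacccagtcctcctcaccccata
Acsm2, chr7:119554090-119554339, plus strand: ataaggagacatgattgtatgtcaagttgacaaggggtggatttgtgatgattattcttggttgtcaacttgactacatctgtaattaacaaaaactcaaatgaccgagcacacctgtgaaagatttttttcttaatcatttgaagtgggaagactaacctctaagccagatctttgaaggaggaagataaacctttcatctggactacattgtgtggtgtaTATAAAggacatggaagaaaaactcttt

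The promoters of these 4 genes differ in base composition. GC made up 74.0% of the windows at the start sites shown for Acsl1 and Acsl3 and 69.3% of that of Acsf2, against 38.3% in that of Acsm2 and a median of 52.7% over 32851 windows of all genes. The windows of the other start site of Acsl1 and of Acsm2 also lay below that median, the latter at 46.7%. High GC was not confined to the 3 genes that moved together with NR. It was 71.7% in the window of Acsl4, 65.0% in Acss2, 64.3% in Acss1, 53.0% in Acsl5 and 50.7% in Acsm1. GGGGCGGGG was present in 5 of the 11 windows (Acsl1, Acsl3, Acsf2, Acss1 and Acss2) and in 11.4% of all windows. CCAAT, the letters of a CCAAT box, was in 5 of the 11 (Acsl1, Acsl3, Acsl5, Acsm1 and Acss2) and in 37.4% of all. The 3 copies of GGGGCGGGG in Acsf2 overlap each other. TATAAA was present in 1 of the 11 windows, that shown for Acsm2, and in 13.6% of all windows. A single fixed pattern for the direct repeat bound by PPARα with its partner RXR, 2 repeats spaced by 1 base, was also searched. That pattern was in none of the 11 windows and in 0.381% of all windows. Looser forms of the repeat and sequence outside the windows were not searched, so whether these genes have such an element was not tested. TCACNCCAC, letters of a sterol response element, was in the window of the other Acsl1 start site alone among the 11 and in 1.24% of all. Both strands were searched, and a match or its absence describes these letters in these windows only.

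**Figure D1:**
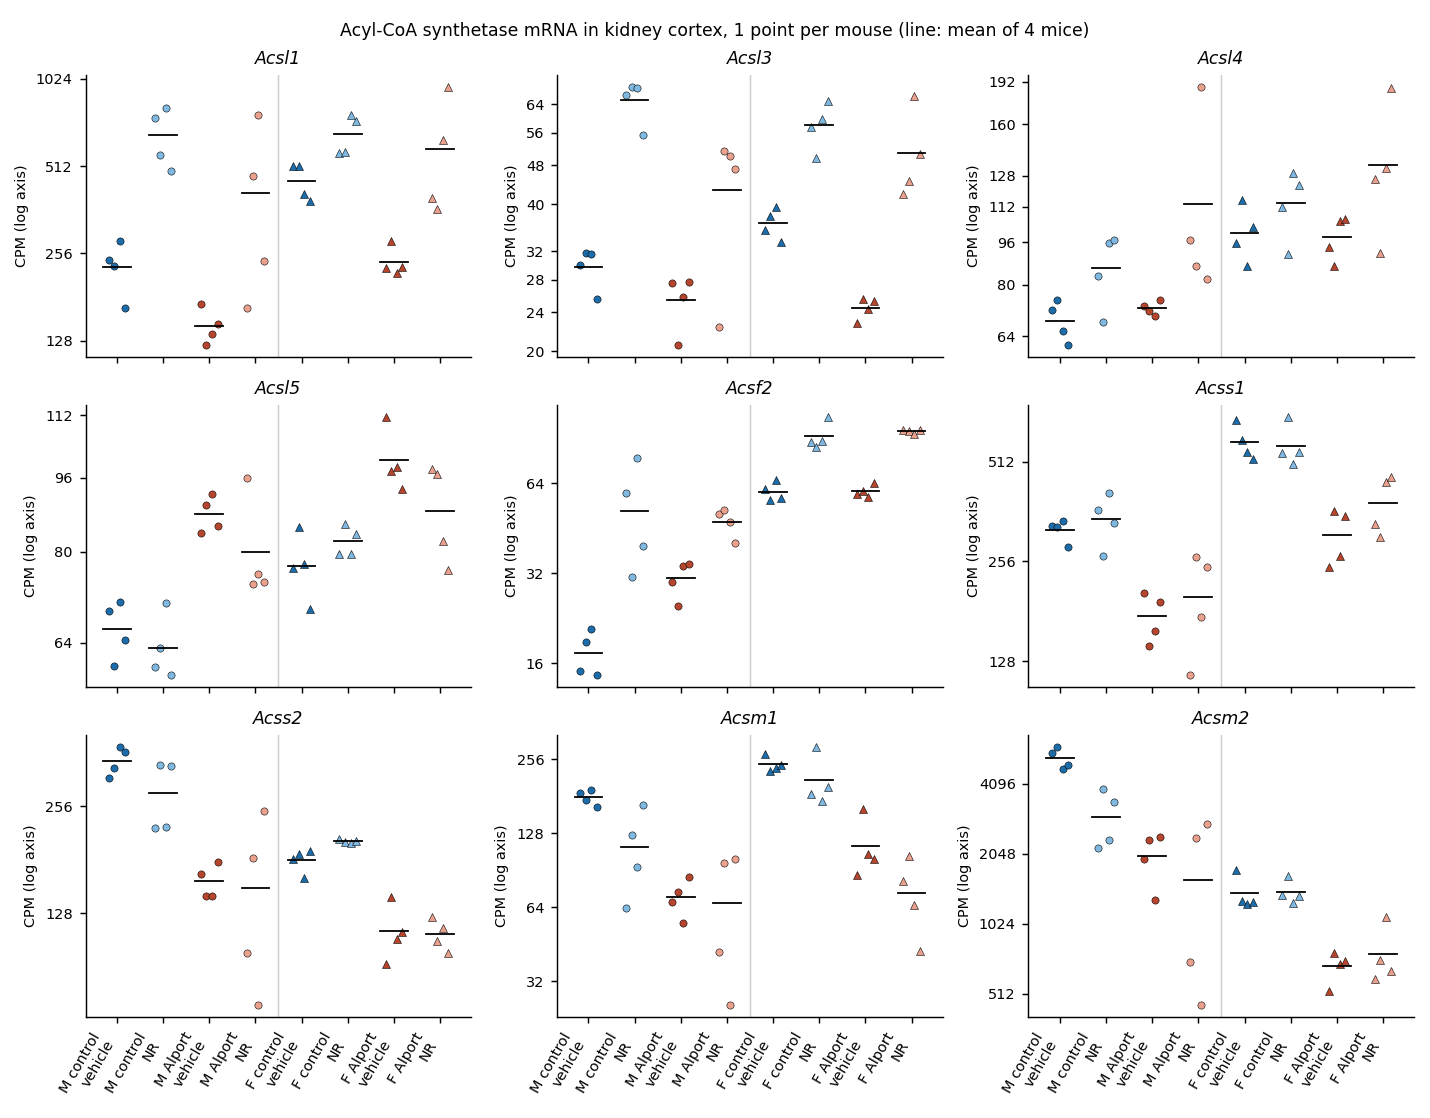
Level of each gene in every mouse, in CPM on a log axis, with males as circles on the left and females as triangles on the right and a line at the mean of 4 mice. Acsm2 lay at 4760 to 5881 CPM in vehicle-treated male controls and at 1293 to 2430 CPM in vehicle-treated male Alport mice.

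Vehicle-treated Alport mice were compared with vehicle-treated controls to ask how the disease alone shifts these genes. In males 7 of the 9 genes passed the edgeR test at an adjusted p under 0.05, with 5 lower and 2 higher, where 50.8% of 15286 genes tested did (24.0% lower, 26.8% higher). The 2 groups did not overlap for 6 of the 9 and for 50.6% of all genes (28.5% lower, 22.1% higher). In females 7 of 9 passed, with 6 lower and 1 higher, where 45.7% of 15709 genes tested did (21.8% lower, 23.9% higher). The groups did not overlap for 7 of the 9 and for 44.4% of all genes (23.7% lower, 20.7% higher). The median log2 fold change of the 9 was −0.59 in males and −0.63 in females, against 0.00 in each sex over all genes tested. Acsm1, Acsm2, Acss1 and Acss2 fell in both sexes, Acsl5 rose in both, Acsf2 rose in males, and Acsl4 passed in neither.

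Acsm2 and Acsm1, which encode matrix enzymes that activate medium-chain and benzoic acids for oxidation or glycine conjugation, showed the largest decreases. Acsm2 was at 5561, 5881, 4760 and 4951 CPM in male controls and at 1943, 2341, 1293 and 2430 CPM in male Alport mice. In females it was at 1750, 1286, 1246 and 1276 CPM in controls and at 526, 765, 688 and 711 CPM in Alport mice. No Alport mouse reached the lowest control of its sex. The edgeR log2 fold change of Acsm2 was −1.32 ± 0.18 (SE, adjusted p = 6.96e-05) in males and −1.01 ± 0.15 (adjusted p = 3.49e-04) in females. Acsm1 fell from 179 ± 12.6 to 70.2 ± 12.4 CPM in males (SD, n = 4 mice each), an edgeR log2 change of −1.27 ± 0.12 (SE, adjusted p = 1.98e-06). In females it fell from 245 ± 17.2 to 113 ± 32.5 CPM, an edgeR log2 change of −1.07 ± 0.17 (adjusted p = 7.24e-04).

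The acetate-activating genes fell as well. Acss2, the cytosolic enzyme that supplies acetyl-CoA for lipid synthesis and histone acetylation, was at 307, 328, 374 and 362 CPM in male controls. In male Alport mice it was at 165, 143, 143 and 179 CPM, with no overlap. Its edgeR log2 fold change was −1.04 ± 0.10 (adjusted p = 3.52e-06) in males and −0.63 ± 0.12 (adjusted p = 0.00162) in females. Acss1, the mitochondrial counterpart that feeds acetate into the citric acid cycle, fell from 319 ± 24.8 to 175 ± 29.5 CPM in males and from 587 ± 70.5 to 307 ± 59.5 CPM in females. Its edgeR log2 fold changes were −0.78 ± 0.12 (adjusted p = 1.19e-04) and −0.90 ± 0.14 (adjusted p = 5.34e-04).

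Among the long-chain genes, Acsl1 fell and Acsl5 rose. Acsl1, the main long-chain synthetase of oxidative tissues and a known PPARα target, was at 243, 231, 282 and 167 CPM in male controls and at 172, 124, 135 and 147 CPM in male Alport mice, and the ranges overlapped by 1 mouse. In females it was at 512, 511, 410 and 388 CPM in controls and at 229, 283, 220 and 229 CPM in Alport mice, without overlap. On the log2 scale the edgeR change was −0.59 ± 0.15 (adjusted p = 0.00552) in males and −0.88 ± 0.12 (adjusted p = 2.10e-04) in females. The male call was lost in 1 edgeR fit of all 32 mice (adjusted p = 0.0784). Acsl5, a synthetase of mitochondria and endoplasmic reticulum, was at 60.4 to 70.7 CPM in male controls and at 83.9 to 92.3 CPM in male Alport mice. The Alport range was above the control range in females too, at 93.3 to 111 against 69.5 to 85.0 CPM. Its edgeR log2 fold changes were 0.49 ± 0.07 (adjusted p = 1.15e-04) and 0.41 ± 0.08 (adjusted p = 0.00128).

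Acsl3, which loads lipid droplets, fell in females from 36.6 ± 2.59 to 24.5 ± 1.22 CPM, an edgeR log2 change of −0.54 ± 0.07 (adjusted p = 2.34e-04). In males the edgeR log2 fold change of Acsl3 was −0.14 ± 0.11 (adjusted p = 0.297), from 29.8 ± 2.91 to 25.4 ± 3.33 CPM. Acsl4, which prefers arachidonic acid and shapes the membrane lipids on which ferroptosis depends, had edgeR log2 fold changes of 0.16 ± 0.08 (adjusted p = 0.0902) in males and 0.01 ± 0.09 (adjusted p = 0.943) in females. Its 95% interval in females was −0.20 to 0.22.

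Acsf2, a mitochondrial medium-chain synthetase, rose in Alport males and did not pass the test in females. It was at 15.0, 18.9, 20.8 and 14.7 CPM in male controls and at 29.8, 24.8, 33.8 and 34.5 CPM in male Alport mice. Female controls were at 61.0, 56.3, 65.4 and 57.0 CPM and female Alport mice at 58.8, 60.4, 57.7 and 63.9 CPM. The male groups did not overlap, and the female groups covered nearly the same range. The edgeR log2 fold change was 0.91 ± 0.13 (adjusted p = 1.07e-04) in males and 0.04 ± 0.07 (adjusted p = 0.643) in females. The sex-genotype interaction of Acsf2, the female minus the male change in an edgeR fit of the 16 vehicle-treated mice, was −0.90 ± 0.16 (adjusted p = 0.0175). It stayed under 0.05 in all 16 fits that left out 1 mouse. The study also asks for a 2-fold change in an interaction, which Acsf2 did not reach, so that 0 of the 9 genes were called, where 0.254% of 16152 genes were (0.111% higher, 0.142% lower). An unadjusted p under 0.05 was found for 3 of the 9 (Acsl3, Acsf2 and Acss2) and for 1910 of the 16152 genes. DESeq2 and limma-voom called 0 of the 9 with the same limits.

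Markers of other cell types moved with these differences. All 10 proximal tubule markers were lower in Alport mice of each sex in the edgeR test, with a median log2 fold change of −1.11 in males and −1.01 in females. All 8 macrophage and all 7 fibroblast markers were higher, with medians of 3.37 and 2.91 in males and 2.66 and 2.19 in females. All 4 injured tubule markers were higher, with medians of 6.32 in males and 5.40 in females, as were 4 of 5 endothelial markers in males and 3 of 5 in females. Podocyte markers were higher for 5 of 5 genes in males and 4 of 5 in females. Of 6 markers of the loop and distal nephron, 3 were lower in each sex. The part of these shifts in the values of the 9 genes was not tested.

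**Figure D2:**
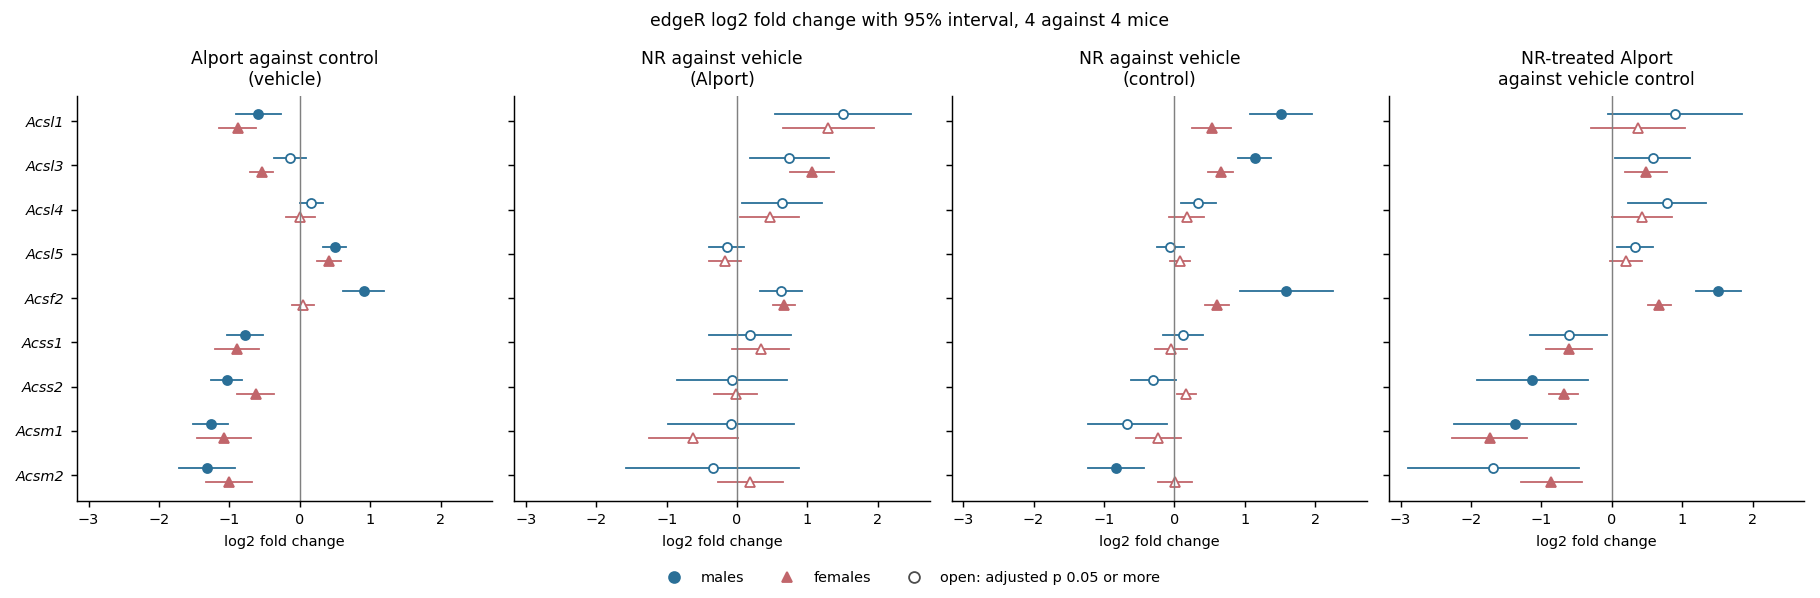
edgeR log2 fold change of each gene with its 95% interval in 4 comparisons of 4 against 4 mice, males as blue circles and females as red triangles, filled where the adjusted p was under 0.05. In the comparison of Alport with control mice Acsf2 lay at 0.91 in males and 0.04 in females.

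Of 15 other acyl-CoA synthetases, 11 could be tested in males and 12 in females. In Alport males 7 were lower and 2 higher, and in Alport females 6 were lower and 1 higher, with medians of −0.53 and −0.43. Slc27a2, which takes up and activates very-long-chain fatty acids in the proximal tubule, fell from 4819 ± 337 to 2020 ± 258 CPM in males, an edgeR log2 change of −1.17 (adjusted p = 1.22e-05). Aacs, which activates acetoacetate in the cytosol, fell from 377 ± 62.0 to 160 ± 37.6 CPM in males, an edgeR log2 change of −1.16 (adjusted p = 2.03e-04). Acsm5, a further medium-chain gene, changed by −1.28 in males and −1.08 in females on the edgeR log2 scale. Acsbg1, a synthetase best known from brain and testis, rose from 0.505 ± 0.115 to 12.0 ± 2.23 CPM in males and from 0.439 ± 0.177 to 8.55 ± 3.17 CPM in females. Its edgeR log2 fold changes were 4.65 (adjusted p = 8.74e-09) and 4.33 (adjusted p = 2.26e-05).

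NR was compared with vehicle in control mice to ask what NR does without disease. These comparisons share their vehicle-treated controls with the comparisons of genotype above. In males 4 of 9 genes passed the edgeR test, with Acsl1, Acsl3 and Acsf2 higher and Acsm2 lower, where 4.45% of 14696 genes passed (2.97% higher, 1.48% lower). The same 4 had no overlap between groups, against 13.4% of all genes (7.34% higher, 6.01% lower). In females 3 of 9 passed, with Acsl1, Acsl3 and Acsf2 higher, where 6.39% of 14951 genes passed (4.00% higher, 2.39% lower). These 3 and Acss2 had no overlap between groups, against 14.7% of all genes (8.69% higher, 6.03% lower). The median log2 fold change of the 9 was 0.12 in males and 0.17 in females, against 0.00 and −0.01 over all genes tested.

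Acsl1 was at 749, 560, 814 and 491 CPM in NR-treated male controls, above the 167 to 282 CPM with vehicle. In NR-treated female controls it was at 567, 573, 767 and 735 CPM, above the 388 to 512 CPM with vehicle. Tested with edgeR, its log2 fold change was 1.51 ± 0.20 (adjusted p = 0.00626) in males and 0.53 ± 0.13 (adjusted p = 0.0328) in females. The female call was lost when any of 4 mice was left out (replicates 3 and 4 of each female control group), with an adjusted p of up to 0.0909. It was also lost in 1 edgeR fit of all 32 mice (adjusted p = 0.549). Acsl1 is also a gene of fat cells, and replicate 3 of the NR-treated female controls, with the highest Acsl1 level of its group, held the highest sum of adipocyte markers, 12.0 CPM. The other libraries summed to at most 3.18 CPM, and the part of these markers in the Acsl1 value was not tested.

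Acsl3 rose in controls of both sexes. It was at 67.0, 69.3, 69.0 and 55.3 CPM in NR-treated male controls against 30.0, 31.8, 31.6 and 25.6 CPM with vehicle. In females it was at 57.6, 49.7, 59.7 and 65.1 CPM against 35.4, 37.9, 39.4 and 33.5 CPM. The ranges did not overlap in either sex. In the edgeR test the log2 fold change was 1.14 ± 0.11 (adjusted p = 5.61e-04) in males, where Acsl3 ranked 8 by p among 14696 genes. It was 0.66 ± 0.08 (adjusted p = 0.00136) in females, where it ranked 16 among 14951. The female call of Acsl3 was lost in 1 edgeR fit of all 32 mice (adjusted p = 0.117).

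Acsf2 was at 59.2, 30.9, 77.4 and 39.6 CPM in NR-treated male controls, all above the 14.7 to 20.8 CPM with vehicle but spread over a wide range. In NR-treated female controls it was at 87.9, 84.3, 88.3 and 106 CPM, above the 56.3 to 65.4 CPM with vehicle. Its edgeR log2 fold change was 1.59 ± 0.29 (adjusted p = 0.0264) in males and 0.60 ± 0.08 (adjusted p = 0.00148) in females. The male call was lost without NR replicate 1 or vehicle replicate 1, 2 or 4, with an adjusted p of up to 0.0932. The female call was lost in 1 edgeR fit of all 32 mice (adjusted p = 0.1595).

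Acsm2 fell with NR in male controls. It was at 2174, 3899, 2343 and 3427 CPM, below the 4760 to 5881 CPM with vehicle. The edgeR log2 fold change was −0.83 ± 0.18 (adjusted p = 0.0310), and the call was lost without NR replicate 1 or 3 or vehicle replicate 1, 2 or 4, with an adjusted p of up to 0.105. It was also lost in 1 edgeR fit of all 32 mice (adjusted p = 0.154). In female controls Acsm2 was at 1406 ± 170 CPM with NR and 1389 ± 241 CPM with vehicle, and its edgeR log2 fold change was 0.01 ± 0.11 (adjusted p = 0.978). Acsm1 in males was at 63.7 to 167 CPM with NR and 164 to 192 CPM with vehicle, an edgeR log2 fold change of −0.67 ± 0.25 (adjusted p = 0.159). Acsl4, Acsl5, Acss1 and Acss2 passed in neither sex, with edgeR log2 fold changes between −0.30 and 0.34.

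Changes with NR were larger in male than in female controls for Acsl1, Acsl3 and Acsf2, but the difference did not pass the edgeR test. The NR-sex interaction in controls, the female minus the male change, was −0.97 ± 0.25 (adjusted p = 0.0823) for Acsl1, −0.47 ± 0.14 (adjusted p = 0.106) for Acsl3 and −0.97 ± 0.31 (adjusted p = 0.153) for Acsf2. For Acsm2 it was 0.85 ± 0.23 (adjusted p = 0.0854). The edgeR test called 0 of the 9 genes, where 0.624% of 15379 genes were called (0.332% higher, 0.293% lower). An unadjusted p under 0.05 was found for 5 of the 9 and for 2398 of the 15379. DESeq2 called 3 of the 9 (Acsl1, Acsf2 and Acsm2). Without replicate 2 of the NR-treated male controls edgeR called Acsf2 and Acsm2, and without replicate 4 it called Acsl1, Acsl3, Acss2 and Acsm2.

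Of 12 other acyl-CoA synthetases tested for this interaction, 1 passed, the medium-chain gene Acsm3. Its calls were not followed when a mouse was left out or a setting changed. It was at 418 ± 56.7 CPM in male controls and 145 ± 73.2 CPM with NR, and at 6.88 ± 2.06 CPM in female controls and 14.9 ± 2.86 CPM with NR. Tested with edgeR, its log2 fold change was −1.52 (adjusted p = 0.0475) in males and 1.10 (adjusted p = 0.0167) in females, with an interaction of 2.63 ± 0.46 (adjusted p = 0.0328).

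Markers of other cells moved with NR in male controls. In the edgeR test all 5 endothelial markers, 2 of 8 macrophage, 3 of 7 fibroblast and 2 of 4 injured tubule markers were higher, and 1 of 10 proximal tubule markers was lower. The injured tubule markers summed to 20.3 to 63.4 CPM with NR and 9.62 to 14.3 CPM with vehicle, against 429.6 to 739 CPM in vehicle-treated male Alport mice. In female controls none of the endothelial, macrophage, fibroblast and injured tubule markers was called. There 1 proximal tubule marker was higher and 1 lower, and 1 of 6 loop and distal nephron markers was lower. The part of these shifts in the male values was not tested.

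NR was compared with vehicle in Alport mice to ask whether treatment in disease moved the same genes. In males 0 of 9 genes passed the edgeR test, as did 0% of 15500 genes. The groups did not overlap for Acsl4 and Acsf2, both higher, and for 3.42% of all genes (1.97% higher, 1.45% lower). At an unadjusted p under 0.05, 4 of the 9 were higher (Acsl1, Acsl3, Acsl4 and Acsf2), and 777 genes in all had such a p. DESeq2 called 1 of the 9 (Acsf2) and 62 genes in all, and limma-voom called 0. In females 2 of 9 passed, Acsl3 and Acsf2, both higher, where 0.458% of 15712 genes passed (0.382% higher, 0.0764% lower). These and Acsl1 had no overlap between groups, against 9.18% of all genes (5.14% higher, 4.05% lower). The median log2 fold change of the 9 was 0.19 in males and 0.33 in females, against 0.01 and 0.00 over all genes.

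Acsf2 was higher in every NR-treated Alport mouse than in any vehicle-treated one of its sex. It was at 50.6, 52.1, 47.4 and 40.3 CPM in males, above the 24.8 to 34.5 CPM with vehicle. In females it was at 96.2, 95.2, 93.3 and 96.4 CPM, above the 57.7 to 63.9 CPM with vehicle. By edgeR the log2 fold change was 0.62 ± 0.13 (adjusted p = 0.552) in males, where the p before adjustment was 0.00110. In females it was 0.67 ± 0.07 (adjusted p = 0.00692), where Acsf2 ranked 4 by p among 15712 genes.

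Acsl3 was at 41.8, 44.5, 66.6 and 50.8 CPM in NR-treated female Alport mice against 22.9, 25.6, 24.4 and 25.3 CPM with vehicle. In males it was at 22.4, 51.3, 50.1 and 47.2 CPM against 27.6, 20.6, 25.8 and 27.7 CPM. In males 3 NR-treated mice lay above all vehicle-treated mice and replicate 1 lay among them. The edgeR log2 fold change was 1.06 ± 0.14 (adjusted p = 0.0131) in females and 0.74 ± 0.25 (adjusted p = 0.912) in males. The female call was lost without vehicle replicate 1, 3 or 4, with an adjusted p of up to 0.0701. Without NR replicate 1 the male value was 0.95 (adjusted p = 0.0254 by edgeR). The male change was called in 1 of 8 fits that left out 1 mouse, with an adjusted p of up to 0.9999.

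Acsl1 showed the widest spread of the long-chain genes. It was at 167, 475, 768 and 241 CPM in NR-treated male Alport mice against 124 to 172 CPM with vehicle, and at 398, 363, 629 and 956 CPM in NR-treated females against 220 to 283 CPM. The female groups did not overlap and the male groups overlapped through replicate 1. On the log2 scale the edgeR change was 1.51 ± 0.43 (adjusted p = 0.836) in males and 1.30 ± 0.29 (adjusted p = 0.109) in females. Without NR replicate 1 the male value was 1.77 (adjusted p = 0.0413 by edgeR). The male change was called in 1 of 8 fits that left out 1 mouse, with an adjusted p of up to 0.9999. Acsl4 was at 97.1, 86.7, 188 and 82.0 CPM in NR-treated males against 69.8 to 74.8 CPM with vehicle, and its edgeR log2 fold change was 0.64 ± 0.25 (adjusted p = 0.943).

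Acsm2, Acsm1, Acss2 and Acss1, which were lower in Alport mice of both sexes, passed the test of NR in neither sex. Acsm2 was at 704, 2391, 461 and 2750 CPM in NR-treated male Alport mice, and Acss2 in the same mice was at 99.0, 183, 70.9 and 248 CPM. Replicates 1 and 3 lay below every vehicle-treated male Alport mouse for both genes, while replicate 4 lay above them all for both and replicate 2 for Acss2 alone. The edgeR log2 fold changes in males were −0.35 ± 0.55 for Acsm2, −0.09 ± 0.40 for Acsm1, −0.07 ± 0.35 for Acss2 and 0.19 ± 0.26 for Acss1, with 95% intervals as wide as −1.58 to 0.88 for Acsm2. In females they were 0.19 ± 0.21, −0.62 ± 0.28, −0.02 ± 0.14 and 0.33 ± 0.18, with adjusted p from 0.313 to 0.956. In NR-treated male Alport mice the summed proximal tubule markers ran from 3679.8 CPM in replicate 3 to 11947 CPM in replicate 2, and their part in the spread of Acsm2 and Acss2 was not tested. No cell type marker passed the edgeR test with NR in Alport mice of either sex. In males and females the list medians were −0.34 and −0.76 for macrophage and −0.65 and −0.67 for fibroblast markers. They were −0.23 and −0.93 for injured tubule and 0.07 and 0.06 for proximal tubule markers.

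The change with NR in Alport mice minus that in controls was tested in each sex. The NR-genotype interaction was called for 0 of the 9 genes and for 0% of all genes tested in each sex by edgeR. In males it had an unadjusted p under 0.05 for Acsf2 alone of the 9, at −0.99 ± 0.32 (adjusted p = 0.444), and for 1395 of 15800 genes. In females 3 of the 9 and 1484 of 16064 genes had such a p. These 3 were Acsl1 at 0.75 ± 0.34 (adjusted p = 0.529), Acsl3 at 0.38 ± 0.17 (adjusted p = 0.514) and Acsl5 at −0.27 ± 0.12 (adjusted p = 0.526). DESeq2 and limma-voom called 0 of the 9 in each sex, and over all genes DESeq2 called 20 in males and 30 in females. The NR-sex interaction in Alport mice was called for 0 of the 9, with 0% of 16189 genes called, and for 0 of the 9 by DESeq2. An unadjusted p under 0.05 was found for 0 of the 9 and for 361 of the 16189.

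NR-treated Alport mice were then set against vehicle-treated controls to ask how far the treated diseased kidney lay from the untreated control kidney. These comparisons share mice with those above. In males 3 of 9 genes passed the edgeR test, 1 higher and 2 lower, where 21.1% of 15077 genes passed (14.4% higher, 6.75% lower). In females 6 of 9 passed, 2 higher and 4 lower, where 23.0% of 15381 genes passed (11.5% higher, 11.4% lower). Groups did not overlap for 7 of the 9 in males, against 32.6% of all genes (14.8% higher, 17.8% lower), and for 6 in females, against 26.3% (11.7% higher, 14.6% lower). Acsf2 was above control in both sexes, with edgeR log2 fold changes of 1.51 ± 0.14 (adjusted p = 0.00182) in males and 0.68 ± 0.07 (adjusted p = 3.37e-04) in females. In males it ranked 10 by p among all genes tested. Acsl3 was above control in females by 0.48 ± 0.14 (adjusted p = 0.0282, edgeR), a call lost without vehicle replicate 1, 2 or 4, and was at 0.58 ± 0.24 (adjusted p = 0.108) in males. Without replicate 1 of the NR-treated male Alport mice the male value was 0.77 (adjusted p = 0.00181, edgeR), and in 1 edgeR fit of all 32 mice it was 0.52 (adjusted p = 0.0145). The male value was called in 1 of 8 fits that left out 1 mouse, with an adjusted p of up to 0.235.

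Acsm1, Acsm2, Acss1 and Acss2 were below control in NR-treated Alport females. The edgeR log2 fold changes were −1.73 ± 0.23 (adjusted p = 0.00149) for Acsm1, −0.86 ± 0.20 (adjusted p = 0.0118) for Acsm2, −0.69 ± 0.09 (adjusted p = 9.23e-04) for Acss2 and −0.60 ± 0.15 (adjusted p = 0.0149) for Acss1. The female call of Acss1 was lost without NR-treated Alport replicate 1 (adjusted p = 0.0511) or vehicle-treated control replicate 1 (adjusted p = 0.0502), and that of Acsm2 in 1 edgeR fit of all 32 mice (adjusted p = 0.0715). In males Acsm1 at −1.37 ± 0.39 (adjusted p = 0.0345) and Acss2 at −1.13 ± 0.35 (adjusted p = 0.0480) passed by edgeR, while Acsm2 at −1.68 ± 0.54 (adjusted p = 0.0535) and Acss1 at −0.61 ± 0.24 (adjusted p = 0.102) did not. All 4 NR-treated male Alport mice lay below all 4 vehicle-treated controls for each of these 4 genes. The male calls were near the threshold: the call of Acss2 was lost in 7 of 8 fits that left out 1 mouse and that of Acsm1 in 5 of 8, with an adjusted p of up to 0.105, and without any 1 vehicle-treated control only Acsf2 was called. Acsl1 was at 0.90 ± 0.43 (adjusted p = 0.158) in males and 0.37 ± 0.29 (adjusted p = 0.402) in females. By edgeR, Acsl4 was at 0.78 ± 0.25 (adjusted p = 0.0513) in males and 0.43 ± 0.19 (adjusted p = 0.134) in females. Acsl5 was at 0.33 ± 0.11 (adjusted p = 0.0625) and 0.20 ± 0.10 (adjusted p = 0.181). Both genes lay above control without overlap in males and overlapped in females. DESeq2 called Acsl4 in males (adjusted p = 0.0185), as did edgeR in 3 of 8 fits that left out 1 mouse.

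Cell type markers also differed in these comparisons. In the edgeR test 3 of 10 proximal tubule markers were lower in males and all 10 in females, with list medians of −0.99 and −0.94. All 4 injured tubule markers were higher in each sex, with medians of 6.07 and 4.43, and so were 5 of 7 fibroblast and 4 of 5 endothelial markers in each sex. Macrophage markers were higher for 7 of 8 genes in males and 4 of 8 in females, and podocyte markers for 5 of 5 and 4 of 5. Of 6 markers of the loop and distal nephron, 1 was lower in males and 0 in females. The part of these shifts in the values of the 9 genes was not tested.

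Female and male vehicle-treated controls were compared to describe the levels from which the sexes start. All 9 genes passed the edgeR test, 7 higher and 2 lower in females, where 31.5% of 14990 genes passed (15.7% higher, 15.8% lower). The sexes did not overlap for 8 of the 9, all but Acsl5, against 32.2% of all genes. Acsm2 was lower in females, with an edgeR log2 difference of −1.90 ± 0.12 (adjusted p = 1.33e-07), at 1389 ± 241 against 5288 ± 523 CPM. Acsf2 was higher by 1.81 ± 0.11 (adjusted p = 1.02e-07), at 59.9 ± 4.22 against 17.3 ± 2.98 CPM. These genes ranked 45 and 38 by p among the 14990. Female controls were above male controls in every mouse for Acsf2 and below them in every mouse for Acsm2. Markers also differed between the sexes by edgeR: 5 of 5 podocyte, 3 of 5 endothelial, 4 of 7 fibroblast, 3 of 8 macrophage, 1 of 4 injured tubule and 2 of 6 loop and distal nephron markers were higher in females, and of 10 proximal tubule markers 1 was higher and 3 were lower. The part of these shifts was not tested.

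The paired enzymes for acetate differed in opposite directions. Acss1 was higher in females by 0.91 ± 0.09 (adjusted p = 7.66e-06) and Acss2 lower (−0.90 ± 0.08, adjusted p = 2.82e-06) on the edgeR log2 scale. Acsm1 was higher in females by 0.48 ± 0.07 (adjusted p = 2.68e-04), the opposite of its neighbor Acsm2. Acsl1 was higher by 1.005 ± 0.16 (adjusted p = 0.00115), Acsl4 by 0.57 ± 0.09 (adjusted p = 3.48e-04), Acsl3 by 0.32 ± 0.09 (adjusted p = 0.0117) and Acsl5 by 0.25 ± 0.08 (adjusted p = 0.0225). The call of Acsl5 was lost in 5 of 8 fits that left out 1 mouse, with an adjusted p of up to 0.0956. In 1 edgeR fit of all 32 mice Acsl3 (adjusted p = 0.237), Acsl4 (adjusted p = 0.0536), Acsl5 (adjusted p = 0.0863) and Acsm1 (adjusted p = 0.356) did not pass. Acsm3 was at 418 ± 56.7 CPM in male and 6.88 ± 2.06 CPM in female controls, an edgeR log2 difference of −5.90 (adjusted p = 8.08e-07).

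Ratios of 2 genes within a mouse do not depend on library scaling. They are of CPM without division by gene length, so they compare groups and not the levels of the 2 genes. The mean log2 ratio of Acsl1 to Acsl4 was 1.73 ± 0.28 in male controls on vehicle, 0.99 ± 0.18 in male Alport mice on vehicle and 1.71 ± 0.72 in NR-treated male Alport mice. In females the ratio was 2.18 ± 0.21, 1.29 ± 0.29 and 2.06 ± 0.31 in those groups. NR-treated controls had the highest ratios, 2.91 ± 0.39 in males and 2.54 ± 0.13 in females. The ratio of Acss1 to Acss2 was −0.10 ± 0.20 in vehicle-treated male controls and 1.70 ± 0.19 in vehicle-treated female controls. The Acsm2 to Acsm1 ratio was 4.88 ± 0.19 in vehicle-treated male controls and 4.81 ± 0.18 in vehicle-treated male Alport mice, and 2.49 ± 0.15 and 2.60 ± 0.24 in the female groups. The level of both genes fell in Alport mice of each sex while the mean of this ratio moved by less than its SD. In NR-treated female Alport mice it was 2.85 and 2.79 in replicates 1 and 2 and 4.06 and 3.93 in replicates 3 and 4.

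**Figure D3:**
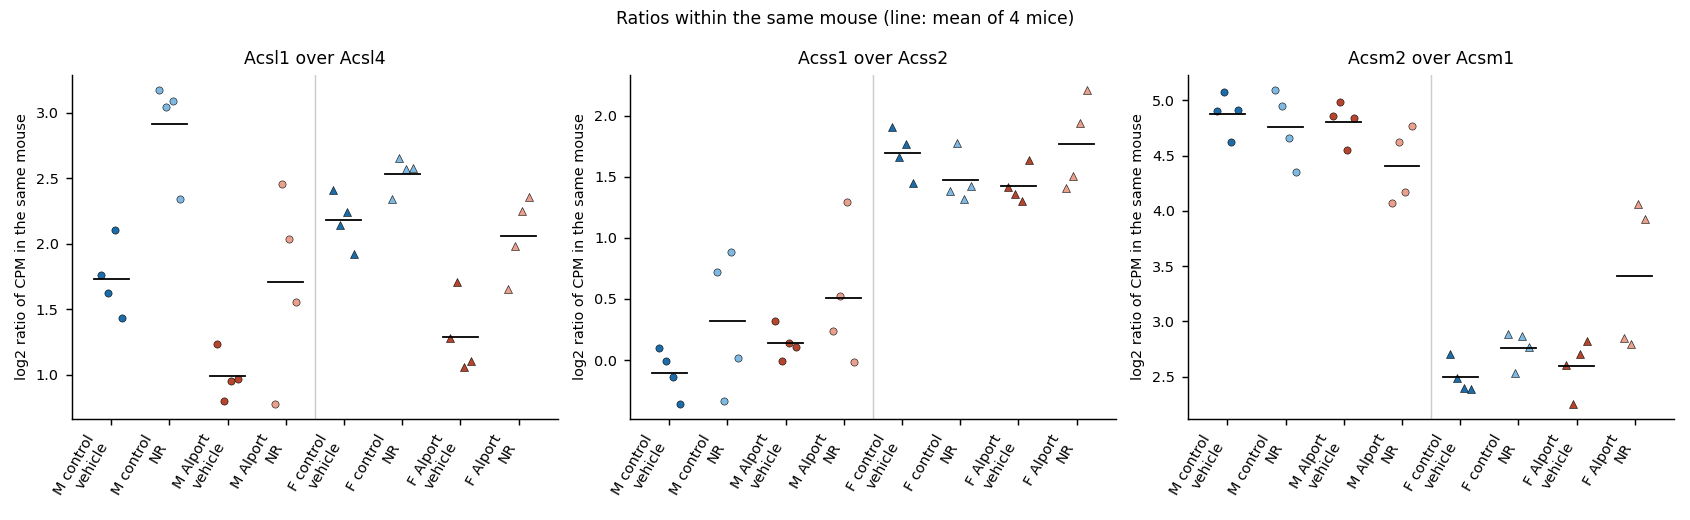
log2 ratio of the CPM of 2 genes in the same mouse, males as circles on the left and females as triangles on the right, with a line at the mean of 4 mice. The ratio of Acsm2 to Acsm1 lay at 4.07 to 5.09 in all males and at 2.25 to 4.06 in all females.

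The 9 genes fell into groups by how they varied over the 32 mice. Correlations below are of log2 CPM, describe mice that differ in sex, genotype and treatment, and are followed by the value after the mean of each group was removed. Acss2 went with Acsm2 (r = 0.92, and 0.86 within groups). Acsm1 went less closely with Acss2 (r = 0.62, and 0.83 within groups) and Acsm2 (r = 0.42, and 0.80 within groups) over all mice. For each of these genes the SD relative to the mean was largest in NR-treated male Alport mice. There it was 73.6% for Acsm2, 53.8% for Acss2 and 57.5% for Acsm1. Within-group r without that group was not computed. Acsl1 went with Acsl3 (r = 0.88, and 0.70 within groups). Acsl4 ran opposite to Acsm2 (r = −0.70, and −0.54 within groups). Acsl5 ran opposite to Acss2 (r = −0.75), though within groups r was −0.28.

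**Figure D4:**
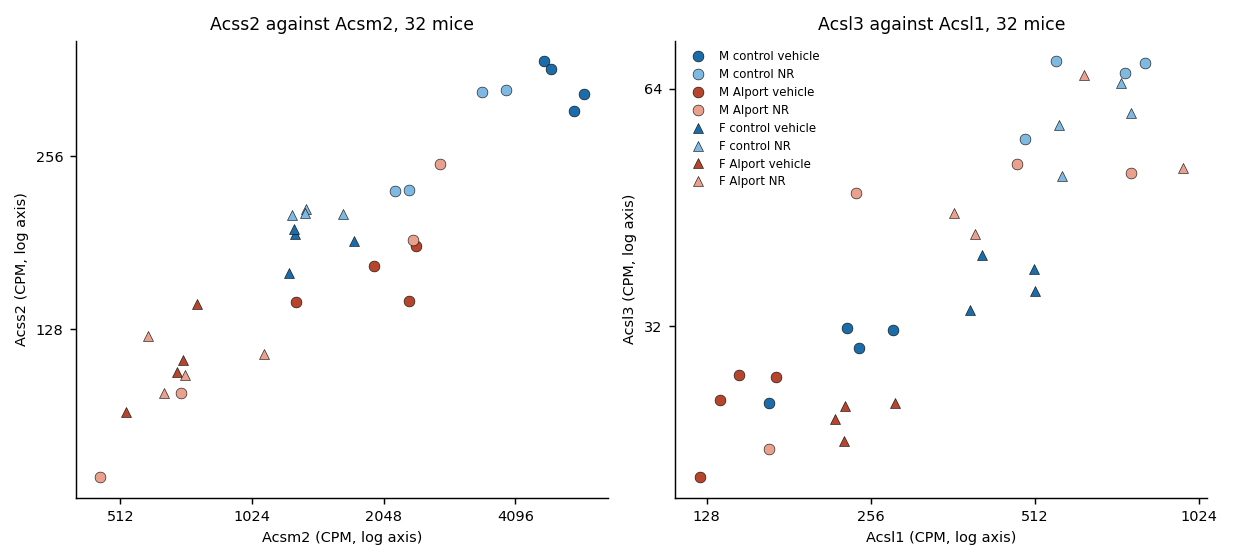
CPM of Acss2 against Acsm2 and of Acsl3 against Acsl1 in each of the 32 mice, both axes on a log scale, with males as circles and females as triangles. Replicates 1 and 3 of the NR-treated male Alport mice lie at 704 and 461 CPM of Acsm2, below every vehicle-treated male Alport mouse.

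Genes with the most similar pattern were sought among 14045 genes with a mean of at least 1 CPM. For Acsm2 the closest were Pecr, Amacr and Proc, with r from 0.972 to 0.978 over 32 mice. For Acss2 they were Akr1c21, Ugt3a2 and Cndp1, with r from 0.971 to 0.975. For Acsl1 they were Kcnip2, Hacl1 and Mgst3, with r from 0.924 to 0.935, and for Acsl3 Gsta3, Retsat and Insig1, with r from 0.928 to 0.935. Acsf2 was closest to Gc, Gm10639 and Elovl2 (r from 0.898 to 0.925), though within groups r was 0.482 to 0.598. Acss1 was closest to Prodh2, Hgfac and Eif2s3x, Acsm1 to Magix, Slc16a4 and Fggy, Acsl5 to Cd1d1, Sh3bp1 and Ephb6, and Acsl4, with the lowest values, to Maoa, Nup93 and Gsta4 (r from 0.815 to 0.874).

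A list of 28 genes of fatty acid oxidation and PPAR targets without the 9 was set beside them. In Alport mice 18 of 27 tested were lower and 1 higher in males, and 22 of 28 lower and 1 higher in females, the list medians being −0.56 and −0.54. Among controls given NR, 14 of 28 were higher in males and 13 of 28 in females, where 1 was lower, with list medians at 0.61 and 0.51. Cyp4a14, a fatty acid hydroxylase that PPARα induces, rose by 5.89 (adjusted p = 0.0167) in male and 1.72 (adjusted p = 0.0200) in female controls on the edgeR log2 scale. Fabp1, the liver-type fatty acid binding protein, rose by 5.43 (adjusted p = 0.0368) and 3.40 (adjusted p = 0.0477). Among Alport mice given NR, 0 of 28 passed in males and 9 of 28 were higher in females (list medians 0.57 and 0.77).

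A list of 20 targets of SREBP, the factors that switch on sterol and fatty acid synthesis, was also set beside them, since Acss2 is a known target. With NR in controls 11 of 20 were higher in each sex and 0 lower, with medians of 0.58 in males and 0.49 in females. Acss2 itself had edgeR log2 fold changes of −0.30 ± 0.15 (adjusted p = 0.246) and 0.17 ± 0.06 (adjusted p = 0.132) in those mice. In NR-treated female controls Acss2 lay at 202 to 208 CPM, above the 161 to 191 CPM with vehicle, and in males the ranges overlapped.

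**Figure D5:**
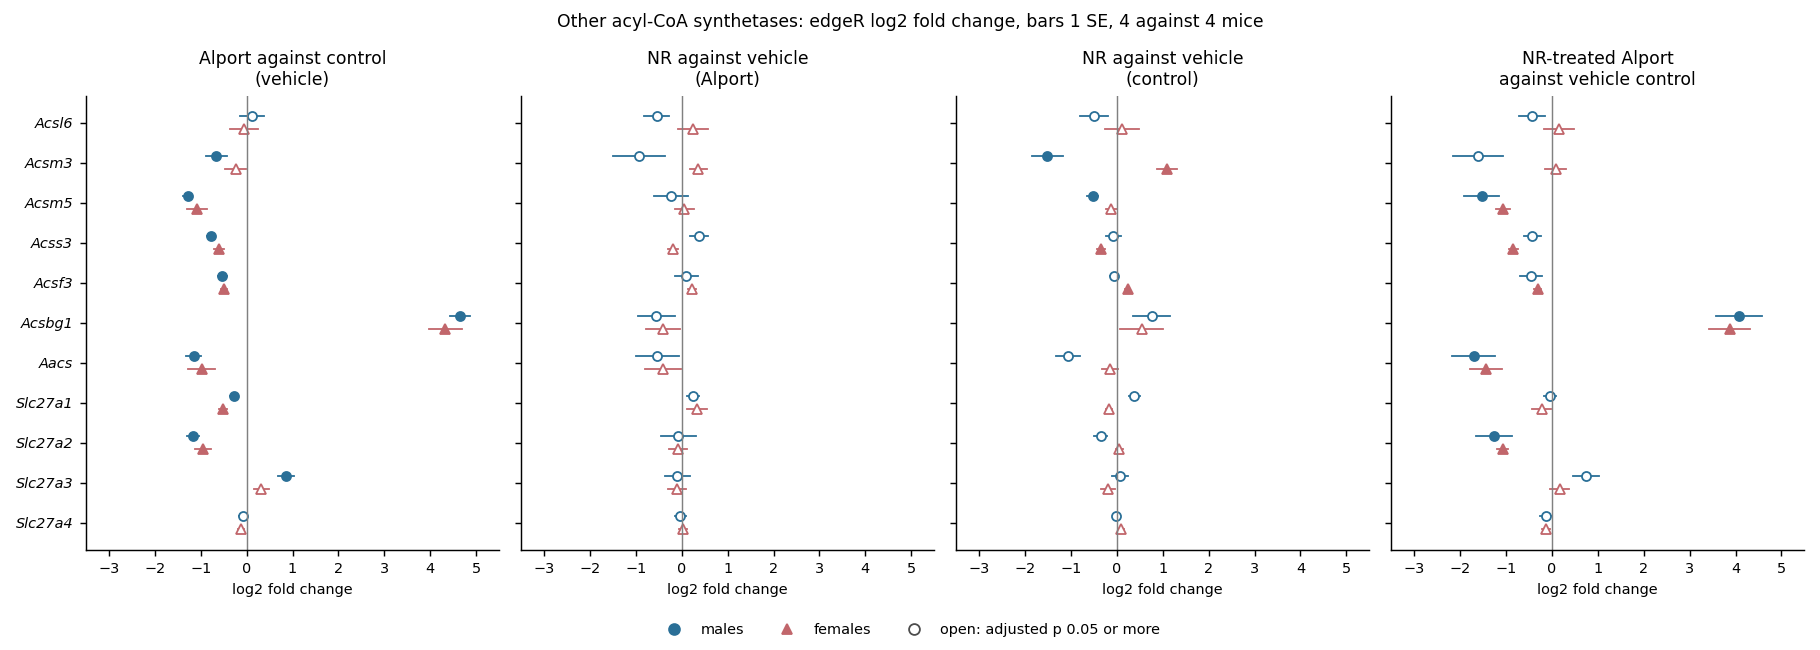
edgeR log2 fold change of 11 other acyl-CoA synthetases in 4 comparisons, bars 1 SE, males as blue circles and females as red triangles, filled where the adjusted p was under 0.05. In the comparison of NR with vehicle in controls Acsm3 lay at −1.52 in males and 1.10 in females.

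The other acyl-CoA synthetases were also tested for NR in controls. Of 11 tested in males, 0 were higher and 2 lower (Acsm3 and Acsm5), and of 12 tested in females, 2 were higher (Acsm3 and Acsf3, a malonyl-CoA synthetase) and 1 lower (Acss3), with list medians at −0.07 and 0.04. Among Alport mice given NR, none of the 11 tested in males or the 12 in females passed the edgeR test. Slc27a2 was at 2020 ± 258 CPM with vehicle and 1934 ± 999.8 CPM with NR in male Alport mice, an edgeR log2 fold change of −0.07 (adjusted p = 0.991). Acsm4, Acsbg2, Slc27a5 and Slc27a6 had at most 38 counts in any library.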

How the data were processed

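RNA was measured by poly(A) RNA-Seq in kidney cortex of 32 mice. The deposited table holds raw read counts per gene that the authors made with BioJupies from their reads. The submitters' processing notes name mm10, and the aligner version, strand and handling of multi-mapped reads are not given in the sources used here. A deposited table of log-scaled values was not used. Groups were taken from the sample labels, with 4 mice each.

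Counts were tested with edgeR 4.0.16 in R 4.3.3 (low-count filter by filterByExpr at 10 counts, library scaling by TMM, robust quasi-likelihood test, Benjamini-Hochberg adjustment over all genes tested, threshold 0.05). Each comparison was fitted on its own 8 mice and each interaction on 16. The sex-genotype interaction also needed a 2-fold change, after the study's rule. SEs were derived from the fold change and its F statistic. P-values set each difference against the spread between these mice, with the variance estimate of each gene drawn toward that of all genes. All 9 genes are named, and similar genes were the 3 with the highest Pearson r over 32 mice. The members and lists were chosen with earlier results of these data known, and the motifs after the results. Some single genes of the SREBP list are not reported here. Alternatives were DESeq2 1.42.0, limma-voom (limma 3.58.1), RLE scaling, no low-count filter, 1 fit of all 32 mice, the replicate number as a block, adding or dropping the 2-fold limit, and leaving out each mouse. Total counts were 16621944 to 27778797 per library.

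On simulated counts for the comparison of Alport with control males (15286 genes), edgeR recovered 77 of 100 genes changed by 1 on the log2 scale and 97 of 100 changed by 2. For the NR-genotype interaction in males (15800 genes) it recovered 40 and 80 of 100. Among genes left unchanged in these 2 simulations edgeR called 10 and 5, and DESeq2 called 34 and 38. DESeq2 recovered 78 and 97 of 100 in the first simulation and 51 and 91 of 100 in the second. Replicate numbers were checked as a pairing: of 36 same-numbered pairs 7 had a correlation of deviations over 0.1, with a range of −0.264 to 0.418. The numbers were not taken to pair mice in the main tests.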

Additional observations from a re-analysis of the deposited data

Results flagged for a closer look

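A sample was looked at again when it lay far from the other 3 of its group by Dixon's ratio, which chance alone exceeds in about 1 in 20 groups. Of 72 groups checked (9 genes in 8 groups), 5 had such a mouse. Acsl1 was at 283 CPM in replicate 2 of the vehicle-treated female Alport mice, where the others lay at 220.0 to 229 CPM. Acsl3 was at 55.3 CPM in replicate 4 of the NR-treated male controls, against 67.0 to 69.3 CPM. In replicate 1 of the NR-treated male Alport mice Acsl3 was at 22.4 CPM, against 47.2 to 51.3 CPM, and Acsl5 was at 95.9 CPM, against 73.9 to 75.7 CPM. Acsm2 was at 1750 CPM in replicate 1 of the vehicle-treated female controls, against 1246 to 1286 CPM.

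The change of Acsf2 with genotype differed between the sexes by the interaction test, at −0.90 ± 0.16 (SE, female minus male, adjusted p = 0.0175 by edgeR), below the 2-fold limit.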

How the results depend on the processing

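Of 41 calls among the 9 genes, 32 held whichever mouse was left out and 28 under all other settings without the 2-fold limit, and none changed sign. With a 2-fold limit the calls fell to 3 in Alport males, 2 in Alport females, 1 with NR in Alport females, 0 with NR in control females, 1 in NR-treated Alport females against vehicle controls and 3 between the sexes. Without a fold limit the sex-genotype interaction had 1. DESeq2 called 1 with NR in Alport males, 6 in NR-treated Alport males against vehicle controls and 3 in the NR-sex interaction of controls. With 1 fit of all 32 mice these were 2 with NR in Alport males, 9 in NR-treated Alport males against vehicle controls, 0 with NR in control females and 5 between the sexes. Without the low-count filter NR-treated Alport males against vehicle controls had 1. The cause was not tested.

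Leaving out 1 mouse gave 0 to 2 calls with NR in Alport males (2 without NR replicate 1), 1 to 2 in Alport females, 2 to 5 in control males, 1 to 5 in NR-treated Alport males against vehicle controls and 0 to 4 in the NR-sex interaction of controls. These log2 values, none of them called, changed sign when a mouse was left out. With NR in Alport males Acsm1 ranged from −0.37 to 0.18 and Acss2 from −0.43 to 0.16. In Alport females Acss2 ranged from −0.12 to 0.11 and Acsm2 from −0.0403 to 0.29. In control females Acss1 ranged from −0.15 to 0.0373 and Acsm2 from −0.0764 to 0.14. Acsl4 in Alport against control females ranged from −0.0507 to 0.0785, and was −0.0289 in 1 fit of all 32 mice. Acsm1 in the sex-genotype interaction ranged from −0.0698 to 0.33. In the NR-genotype interaction of males Acsl1 ranged from −0.51 to 0.24 (0.0121 in 1 fit of all 32 mice), Acsl4 from −0.0715 to 0.42, Acss1 from −0.12 to 0.24 and Acss2 from −0.14 to 0.45, and in females Acsm2 from −0.0646 to 0.26. In the NR-sex interaction of Alport mice Acsl1 ranged from −0.55 to 0.27, Acsl4 from −0.38 to 0.17, Acsl5 from −0.10 to 0.0366, Acsf2 from −0.0171 to 0.14, Acss1 from −0.0770 to 0.31 and Acss2 from −0.19 to 0.41.

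With the replicate number as a block, 4 of the 9 were called with NR in control males and 2 in control females, where Acsl1 was lost (adjusted p = 0.125 by edgeR), and over all genes 413 instead of 654 and 406 instead of 956. The labels do not say what mice with the same number share. The paper states that treatment groups were balanced across litters, and litter is not in the labels used here. Over all genes DESeq2 called 62 instead of 0 with NR in Alport males, 728 instead of 72 in Alport females, 1654 instead of 654 in control males and 1493 instead of 956 in control females. It called 115 instead of 41 in the sex-genotype interaction, 504 instead of 96 in the NR-sex interaction of controls and 1 instead of 0 in that of Alport mice, and 20 and 30 instead of 0 in the NR-genotype interactions of males and females. In 1 fit of all 32 mice the counts were 77 with NR in Alport males, 240 in Alport females and 20 in control females, 6818 instead of 3186 in NR-treated Alport males against vehicle controls, 2795 instead of 4719 between the sexes, and 4, 6 and 1 in the sex-genotype, control NR-sex and male NR-genotype interactions. The block gave 2313 instead of 3535 in NR-treated Alport females against vehicle controls. Without a fold limit the sex-genotype interaction had 80, and without the low-count filter the female NR-genotype interaction had 1. With a 2-fold limit 2602 of 7765 and 2035 of 7179 genes were called in Alport males and females, 177 of 654 and 67 of 956 with NR in control males and females, 1704 of 3186 and 1116 of 3535 in NR-treated Alport males and females against vehicle controls, and 587 of 4719 between the sexes.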
